A study of Mus musculus with 6 samples.

Results

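The 9 genes described here are proneural transcription factors and neuronal markers: Neurog1, Neurog2, Neurod1, Neurod4, Elavl3, Elavl4, Tubb3, Dcx and Stmn2. They were chosen by name, and every probe set whose platform annotation names only one of them was kept, which gave 21 probe sets for all 9 genes, of 18193 genes on the array. Their values come from 6 Affymetrix arrays of mouse cells at embryonic day 9, sorted for YFP from the Isl1-cre domain, which the labels call embryonic cardiac progenitors. The 3 mutant samples came from embryos with Isl1-cre, Rosa-YFP and Beta-catenin (loxP ex3), an allele from which Cre removes exon 3 so that a degradation-resistant β-catenin, the coactivator through which canonical Wnt signals reach their target genes, is made. The 3 wild-type samples were YFP+ cells without the stabilised protein, and the labels list no alleles for them. Cre under Isl1 marks every cell that has expressed Isl1, and in the mouse embryo this includes motor and cranial sensory neurons as well as heart precursors. The series text speaks of independent experiments but not of how many embryos went into a sample, so the p-values reflect only how much these samples varied, which may be partly technical.

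In vertebrate neurogenesis, basic helix-loop-helix (bHLH) proneural factors commit progenitors to the neuronal fate and switch on a cascade of further bHLH factors, which pair with E proteins and bind E boxes, short DNA motifs of the form CANNTG. Newly born neurons then make neuron-specific RNA-binding proteins and tubulin partners. Notch signalling between neighbouring cells holds part of the progenitors back, with the ligand genes Dll1 and Dll3 under proneural control and the Hes repressors as Notch targets.

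The promoters of the members were searched for E boxes. RefSeq promoter windows (GRCm38.p6, 250 bases before the annotated start) were at hand for 8 of the 9 genes, as 13 windows, with none for Stmn2. The 4 windows shown belong to the genes with the largest differences between the groups, Neurod4 and Elavl3, to Elavl4, which carries the same pair of E-box sequences as Elavl3, and to Neurod1, the only bHLH member with an E box in its window. Capitals mark each CANNTG, a motif that reads the same on both strands. The Neurod4 window shown, chr10:130280255-130280504 on the minus strand, has none, and neither has that of its other annotated start, chr10:130280139-130280388.
Neurod4: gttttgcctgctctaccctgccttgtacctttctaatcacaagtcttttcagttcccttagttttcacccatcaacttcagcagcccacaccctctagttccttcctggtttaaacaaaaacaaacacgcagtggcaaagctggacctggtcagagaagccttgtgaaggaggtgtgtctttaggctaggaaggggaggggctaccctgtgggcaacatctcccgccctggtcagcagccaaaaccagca
The Elavl3 window is chr9:22052024-22052273 on the minus strand, with CACCTG beginning 117 bases before the start and CAGCTG 43 bases before it.
Elavl3: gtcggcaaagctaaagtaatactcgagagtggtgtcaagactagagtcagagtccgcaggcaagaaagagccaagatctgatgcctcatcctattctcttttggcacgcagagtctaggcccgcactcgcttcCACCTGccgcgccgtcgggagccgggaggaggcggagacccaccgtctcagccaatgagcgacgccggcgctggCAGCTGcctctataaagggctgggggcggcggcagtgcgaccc
The Elavl4 window, from 1 of 4 annotated starts, is chr4:110287528-110287777 on the minus strand, with CACCTG beginning 100 bases before the start, CAGCTG 46 bases before it and CAGATG 39 bases before it. The overlapping window chr4:110287512-110287761 holds the same boxes. Of the other Elavl4 windows, chr4:110286835-110287084 holds only CATCTG and chr4:110351912-110352161 has no E box.
Elavl4: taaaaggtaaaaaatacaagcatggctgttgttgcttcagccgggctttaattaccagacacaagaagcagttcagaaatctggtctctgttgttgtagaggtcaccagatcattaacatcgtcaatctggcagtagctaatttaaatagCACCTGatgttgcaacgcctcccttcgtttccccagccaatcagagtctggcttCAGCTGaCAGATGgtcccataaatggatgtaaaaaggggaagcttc
The Neurod1 window is chr2:79456637-79456886 on the minus strand, with CATATG beginning 242 bases before the start.
Neurod1: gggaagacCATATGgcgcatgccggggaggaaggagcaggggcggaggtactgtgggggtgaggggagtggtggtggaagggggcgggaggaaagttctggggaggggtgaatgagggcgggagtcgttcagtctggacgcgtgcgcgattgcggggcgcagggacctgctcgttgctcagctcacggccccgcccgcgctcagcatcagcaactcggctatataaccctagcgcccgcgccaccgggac
In all, 5 of the 13 windows, from 3 of 8 genes, held a CANNTG, against 66.2% of 32851 RefSeq windows of the same length. CAGATG, or CATCTG when read from the opposite strand, is one form of CANNTG. Among the 8 genes it was in windows of 1, Elavl4, in each Elavl4 window that held an E box. It was in 14.4% of all windows. That is a share of windows, so the count of genes cannot be ranked against it, and some of the Elavl4 windows overlap. CTTTGA, or TCAAAG when read from the opposite strand, a core of the motif of the TCF/LEF partners of β-catenin, was in no member's window, against 13.8% of all windows. A match is only a match of letters in these windows.

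All values are log2 values as deposited, and differences are mutant minus wild type on that scale. Where a gene had several probe sets, the one with the highest mean over the 6 arrays stood for it. The mean of bacterial control probe sets had a 95th percentile of 4.85, used as a rough background, and all 9 genes lay above it, as did 20 of the 21 probe sets. The arrays correlated with each other at 0.979 to 0.989 over all genes. The first principal component (36.4% of the variance) put the mutant arrays at 1.20, 33.0 and 29.4 and the wild-type arrays between −21.6 and −20.5, so mutant array 1 lay between the others. The 3′ minus 5′ difference of the Gapdh control, a measure of RNA and amplification quality, was 1.04 to 1.38 on mutant and 1.09 to 1.53 on wild-type arrays. The Y-linked gene Kdm5d lay between 8.67 and 9.92 in all mutant samples, against 9.84 in wild-type sample 1 and 2.82 and 3.52 in wild-type samples 2 and 3. Xist, the RNA that coats a silenced X in female cells, read 12.13, 7.54 and 12.44 in mutant samples 1, 2 and 3, against 5.46, 12.63 and 12.79 in wild-type samples 1, 2 and 3, so mutant samples 1 and 3 held high levels of both transcripts. The part of these sex-linked differences in the results was not tested.

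Most of the 9 genes were low on mutant arrays 2 and 3 and within the wild-type range on mutant array 1. Of the 9 genes, 8 had a lower mutant mean (as did 55.3% of all genes), with Neurod4 (−1.74) and Elavl3 (−1.37) showing the largest differences and Neurog2 (0.06) the smallest. On mutant arrays 2 and 3, 8 of the 9 genes lay below the lowest wild-type array, where 31.0% and 33.8% of all genes did. On mutant array 1 this held for 2 genes, and 6 lay within the wild-type range, beside 27.8% of all genes below it. With limma over all 18193 genes, no member passed an adjusted p of 0.05 in either direction, while 12 genes rose (0.066% of genes called) and none fell. Two-sided unadjusted p-values were under 0.05 for 2 members, Neurod4 and Elavl3, both lower, against 4.84% of all genes that were lower at that level (11.6% in either direction). The members' median difference was −0.72, against −0.03 over all genes, and 5 of the 9 stood below −0.5, as did 3.34% of all genes. In a sorted sample, fewer neurons and less RNA per neuron cannot be told apart.

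**Figure D1:**
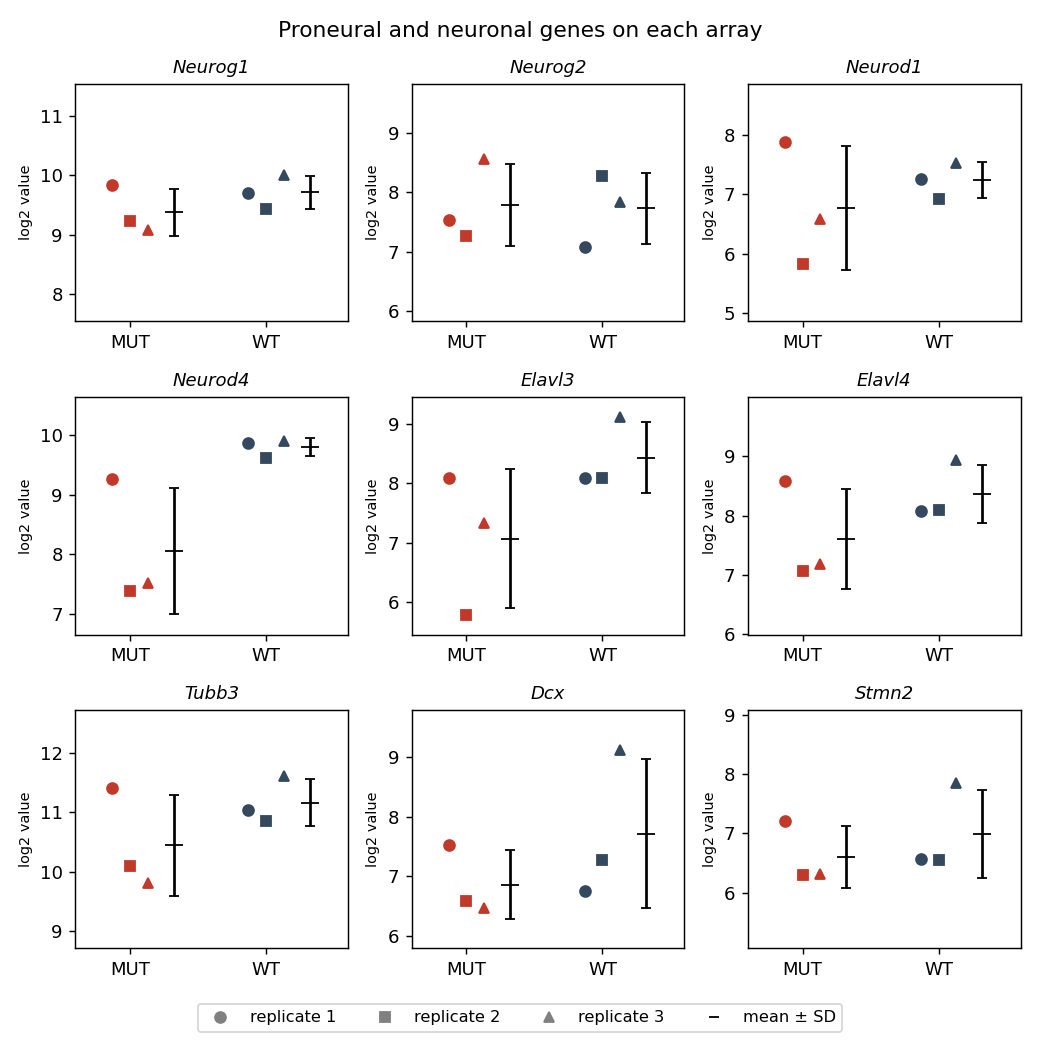
Log2 value (vertical axis, the same span of 4 in each panel) of each of the 9 genes on the 3 mutant (MUT, red) and 3 wild-type (WT, dark) arrays, with symbols for the replicate number and bars for mean ± SD. Mutant replicates 2 and 3 lie below every wild-type array for most genes, while mutant replicate 1 lies among or near the wild-type arrays, as for Tubb3 at 11.41.

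The neurogenins start the cascade. Neurog1, on its brighter probe set, lay below every wild-type array on mutant arrays 2 and 3, and Neurog2 did not. Neurog1, the proneural factor of cranial and spinal sensory neurons, read 9.83, 9.23 and 9.08 on mutant arrays 1, 2 and 3, against 9.69, 9.43 and 10.001 on wild-type arrays 1, 2 and 3. The groups overlapped through mutant array 1, and the difference was −0.33 (SE 0.23, adjusted p = 0.605). Without mutant array 1 it was −0.56 (SE 0.195, adjusted p = 0.274). A dimmer Neurog1 probe set read 6.17, 6.41 and 6.44 on mutant arrays, against 6.36, 6.40 and 6.76 on wild-type arrays. Its difference was −0.17 (SE 0.16), or −0.08 without mutant array 1. On that probe set mutant array 1 was the lowest of all 6, and mutant arrays 2 and 3 lay within the wild-type range. Neurog2, which acts in spinal cord, forebrain and epibranchial placodes, read 7.54, 7.26 and 8.57 on mutant arrays, against 7.09, 8.27 and 7.84 on wild-type arrays. Its highest value was on mutant array 3, its lowest on wild-type array 1, and the means of 7.79 ± 0.69 in mutant and 7.73 ± 0.60 in wild-type cells (SD, n = 3 each) differed by 0.06 (SE 0.40, adjusted p = 0.966). Neurog2 was the only member whose mean was not lower in the mutant cells.

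The NeuroD factors act after the neurogenins. Neurod4 (also known as Math3), a bHLH factor of newly committed neurons, read 9.27, 7.39 and 7.51 on mutant arrays, against 9.87, 9.62 and 9.90 on wild-type arrays. All mutant arrays lay below all wild-type arrays, yet mutant arrays 2 and 3 stood far lower than mutant array 1, and the wild-type arrays were close together. Means were 8.06 ± 1.06 in mutant and 9.80 ± 0.15 in wild-type cells (SD, n = 3 each), a difference of −1.74 (SE 0.46) that is 3.34-fold and did not pass (adjusted p = 0.249). The probe set behind these values carries the suffix _s_at, which Affymetrix gives to probe sets that may match transcripts of more than one gene. A separate Neurod4 probe set read 7.96, 5.96 and 6.002 on mutant arrays, against 8.16, 8.11 and 8.16 on wild-type arrays. On it too every mutant array lay below every wild-type array and mutant arrays 2 and 3 were far below mutant array 1, with a difference of −1.50 (SE 0.50, adjusted p = 0.380 over all probe sets). The remaining Neurod4 probe set lay below background on all arrays, at 2.41 to 2.71 in mutant and 2.54 to 3.02 in wild-type cells.

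Neurod1, a bHLH factor of differentiating sensory neurons and of endocrine cells, read 7.88, 5.83 and 6.59 on mutant arrays, against 7.25, 6.93 and 7.53 on wild-type arrays. Mutant array 1 held the highest value of all 6 and mutant array 2 the lowest, so the mutant SD (1.04) exceeded the wild-type SD (0.30). The difference was −0.47 (SE 0.47, adjusted p = 0.715). A dimmer Neurod1 probe set read 6.95, 4.24 and 5.21 on mutant arrays, against 6.53, 6.10 and 5.89 on wild-type arrays, with the same array highest and the same array lowest.

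Elavl3 and Elavl4 encode the neuronal RNA-binding proteins HuC and HuD, made from early in neuronal differentiation. Elavl3 read 8.08, 5.79 and 7.32 on mutant arrays, against 8.09, 8.09 and 9.12 on wild-type arrays. Mutant array 1 lay just under wild-type arrays 1 and 2, so the groups were kept apart by a narrow gap. The mutant mean of 7.07 ± 1.17 and the wild-type mean of 8.43 ± 0.59 (SD, n = 3 each) differed by −1.37 (SE 0.57), which is 2.58-fold and did not pass (adjusted p = 0.421). The other Elavl3 probe sets gave −0.23 (SE 0.15) and −0.08 (SE 0.18), so the difference rested on 1 of 3 probe sets. It was −0.73 without mutant array 2 and −0.56 with the mean of the Elavl3 probe sets. Elavl4 read 8.57, 7.06 and 7.18 on mutant arrays, against 8.08, 8.09 and 8.93 on wild-type arrays, and differed by −0.76 (SE 0.43, adjusted p = 0.526). Its other probe sets gave −0.90 and −0.95, and on all 3 of them mutant arrays 2 and 3 lay below every wild-type array while mutant array 1 lay within their range.

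Among the cytoskeletal members, Tubb3, the neuronal class III β-tubulin, read 11.41, 10.10 and 9.82 on mutant arrays, against 11.03, 10.85 and 11.62 on wild-type arrays. Mutant array 1 was second only to wild-type array 3, and the difference was −0.72 (SE 0.41, adjusted p = 0.533). Dcx, the X-linked gene of the microtubule-binding protein doublecortin of migrating neurons, read 7.52, 6.58 and 6.46 on mutant arrays, against 6.75, 7.27 and 9.12 on wild-type arrays. Here the largest gap lay within wild type, where array 3 stood apart, and the difference of −0.86 (SE 0.59, adjusted p = 0.595) was −0.16 without that array. The 4 Dcx probe sets gave differences from −1.01 to −0.70, with wild-type array 3 highest on each. Stmn2 (SCG10), a microtubule-destabilising protein of growth cones, read 7.21, 6.30 and 6.31 on mutant arrays, against 6.58, 6.55 and 7.84 on wild-type arrays. Mutant array 1 and wild-type array 3 stood above the rest, and the difference was −0.38 (SE 0.40, adjusted p = 0.726). Without wild-type array 3 the Stmn2 difference was 0.05, of opposite sign.

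**Figure D2:**
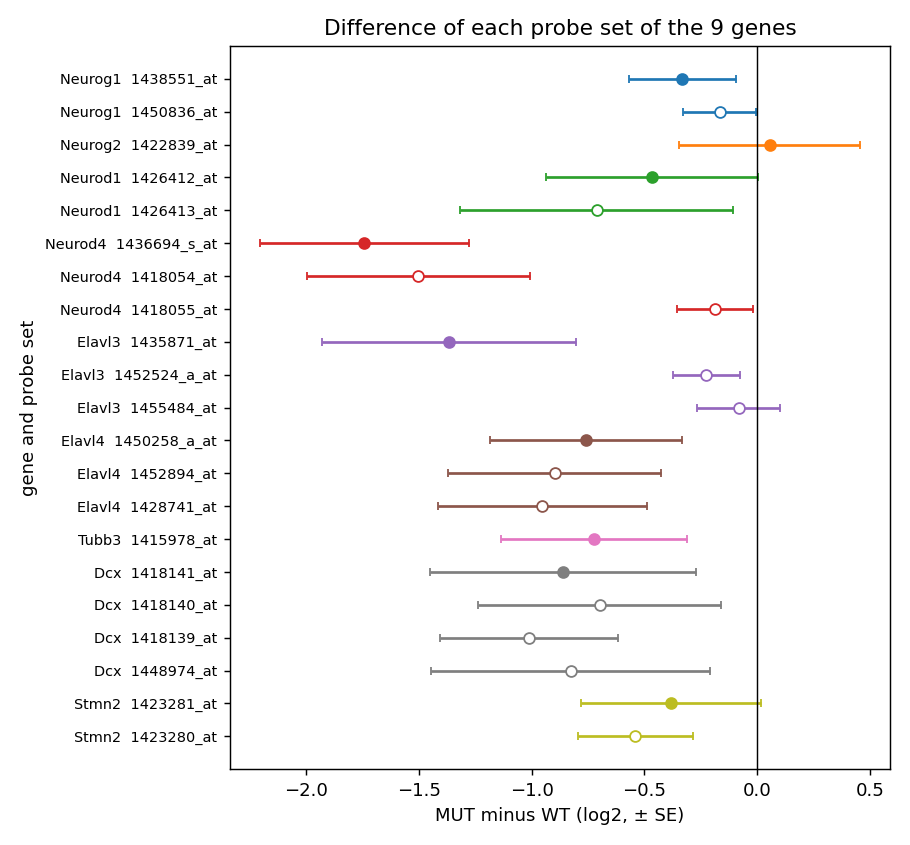
Difference between mutant (MUT) and wild type (WT) on the log2 scale (horizontal axis, points with bars of ± SE) for each of the 21 probe sets (vertical axis), coloured by gene, with filled points for the probe set that stands for the gene. All but that of Neurog2 lie below 0, and the probe sets of Neurod4 and of Elavl3 differ widely in size, from −1.74 to −0.19 and from −1.37 to −0.08.

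Over probe sets, 20 of 21 had a lower mutant mean, and the median difference was −0.71, against −0.03 over all 45037 probe sets. No member's probe set passed when all probe sets were tested, and none of any gene did (0% called). The groups did not overlap for 2 of 9 genes, both lower in mutant cells, where 9.18% of all genes were lower without overlap. For probe sets the count was 4 of 21, against 8.86%. Unadjusted p-values were under 0.05 for 4 of 21 probe sets, all lower in mutant cells (2 of Neurod4, 1 of Elavl3 and 1 of Dcx), against 4.66% of all probe sets in that direction, or 10.8% in either. Probe sets of 1 gene share its transcripts and are not separate evidence.

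The spread within each group was wide for these genes. The median SD over the 9 genes was 0.84 in mutant and 0.49 in wild-type cells, against 0.19 and 0.18 over all genes. Mutant array 1 was the highest mutant array for 8 of the 9 genes, as it was for 34.9% of all genes. Wild-type array 3 was the highest wild-type array for 8 of the 9 genes, as it was for 35.2% of all genes. Between wild-type arrays the SD of the bHLH factors was 0.15 for Neurod4, 0.28 for Neurog1, 0.30 for Neurod1 and 0.60 for Neurog2. That of the later markers was 0.40 for Tubb3, 0.49 for Elavl4, 0.59 for Elavl3, 0.74 for Stmn2 and 1.25 for Dcx, so the ranges of both classes overlap, and the difference between them was not tested.

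Each array was left out in turn. Without mutant array 1, Neurod4 fell by 2.35 (SE 0.15) and passed over all genes (limma, adjusted p = 0.0097), 1 of 11 lower genes called then (0.0605% of genes). In the fit over all probe sets without that array, both bright Neurod4 probe sets passed (adjusted p = 0.0204 and 0.0189), among 6 lower calls (0.0133% of probe sets). No other member passed, the nearest being Tubb3 at −1.21 (adjusted p = 0.126) and Elavl4 at −1.24 (0.145). With any other array left out no member passed. Neurod4 kept a difference between −1.83 and −1.41 there, and its adjusted p ranged from 0.395 to 0.515. The members' median was −1.19 without mutant array 1, −0.41 without mutant array 3 and −0.32 without wild-type array 3.

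**Figure D3:**
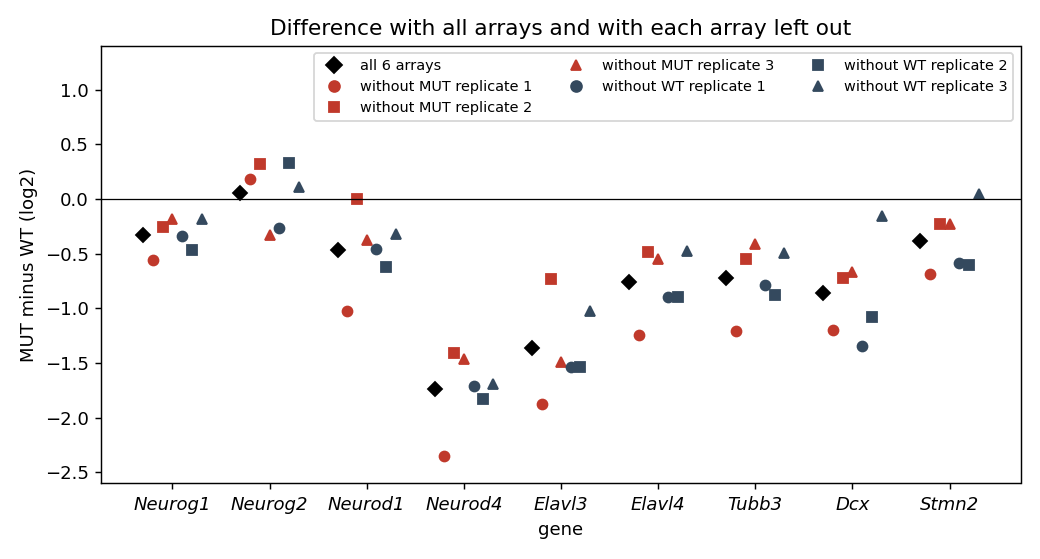
Difference between mutant and wild type (vertical axis, log2) for each of the 9 genes (horizontal axis) with all 6 arrays (diamonds) and with each mutant (red) or wild-type (dark) array left out. Neurod4 stays between −2.35 and −1.41, while Neurog2, Neurod1 and Stmn2 reach or cross 0.

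Further genes of neurogenesis were read from lists, and in none of the lists did a gene rise or fall over all genes. Of 20 measured proneural and neurogenic transcription factors outside the members, 16 had lower values (as did 55.3% of all genes), with a median of −0.25. Only 14 of the 20 had a mean above background, and the counts of some later lists also include genes below it. Nhlh2, a bHLH factor of early neurons, read 6.77, 5.498 and 5.56 on mutant arrays, against 7.35, 7.13 and 8.53 on wild-type arrays (difference −1.72, SE 0.45, adjusted p = 0.243). Insm1, a zinc-finger factor of neuronal and endocrine differentiation, read 7.72, 5.23 and 6.58, against 8.16, 7.70 and 8.18 (−1.50, adjusted p = 0.379). For both genes mutant arrays 2 and 3 were lower than mutant array 1, which lay below every wild-type array for Nhlh2 and just above wild-type array 2 for Insm1. Onecut1, a homeodomain factor, stood at −0.73 (adjusted p = 0.227) and St18, a zinc-finger factor, at −1.05 (0.467).

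Neural progenitor genes stood lower on the same mutant arrays. Of 18 measured, 16 had lower values, with a median of −0.27. Dbx1, a homeobox gene of interneuron progenitors, stood at −1.23 (SE 0.28, adjusted p = 0.220), and the SoxB1 factors Sox3 and Sox2, which keep neural progenitors, at −0.91 (0.277) and −0.52 (0.493). Zic2 stood higher, at 0.50 (0.459). Averaged over this list and set against the mean of the wild-type arrays, the progenitor genes stood at 0.01, −0.48 and −0.51 for mutant arrays 1, 2 and 3, and at −0.03, −0.08 and 0.11 for wild-type arrays 1, 2 and 3. The average over the 9 members stood at 0.02, −1.29 and −0.92 for mutant arrays, and at −0.30, −0.23 and 0.53 for wild-type arrays.

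Notch ligands and repressors of neurogenesis had no common direction, with 10 of 18 higher and a median of 0.01. Dll3, a ligand gene under proneural control, stood at −0.58 (SE 0.16, adjusted p = 0.259), with 6.77, 6.44 and 6.43 on mutant arrays, against 7.05, 6.99 and 7.35 on wild-type arrays. Hes5, a Notch target that represses proneural genes, read 9.14, 8.67 and 8.19, against 9.27, 9.33 and 9.31 (−0.63, adjusted p = 0.374). In this list 2 genes, Dll3 and Hes5, were lower without overlap of the groups, beside 9.18% of all genes, and 4 were higher without overlap, beside 8.64% of all genes. Of those 4, Hey2, another Notch-responsive repressor, stood at 0.66 (0.378) and Id2, which blocks bHLH factors by binding E proteins, at 0.30 (0.421).

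Of 40 genes of neuronal cytoskeleton, vesicles and adhesion, 29 had lower values, with a median of −0.11. Chga, of secretory granules, stood at −0.92 (SE 0.16, adjusted p = 0.140) and Tubb4a, a neural β-tubulin, at −0.91 (0.228). Scg3, a granule protein, stood at −0.87 (0.431), while Tubb6, a broadly expressed β-tubulin, stood at 0.58 (0.293). Nefl, Gap43, Nefm, Snap25 and Map2, set as neuron markers beside the 9 members, had differences of 0.02, 0.07, −0.07, −0.08 and −0.27. For Nefl, Nefm, Snap25 and Map2, mutant array 1 was nonetheless the highest mutant array and wild-type array 3 the highest wild-type array. For Gap43 the highest wild-type array was array 1. Further neuronal genes of this list stood lower, among them Ina at −1.17, Stmn3 at −0.79 and Cntn2 at −0.70, while 11 of the 40 had higher values. Of 15 motor and visceral neuron genes, 11 of them above background, 13 had lower values (median −0.26). Among them were Tbx20 (−0.94, adjusted p = 0.220), Isl1 (−1.18, 0.269) and Hand2 (−0.29, 0.490), which heart precursors also express, while Phox2a stood at 0.47 (0.503). The motor neuron gene Mnx1 lay at 3.28 to 3.63 on mutant and 3.58 to 4.54 on wild-type arrays, below background on all 6. The motor neuron genes Isl2 and Lhx3 lay above background on all 6, at 5.54 to 6.35 and 5.70 to 6.08. Their differences were −0.04 and −0.22.

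Most sensory and crest genes had higher values in mutant cells, though none passed. Of 14 cranial placode and sensory neuron genes 12 had higher values (median 0.32), with the receptor genes Ret at 0.99 (adjusted p = 0.381), Ngfr at 0.53 (0.390) and Ntrk2 at 0.35 (0.496) and the placode factor Six4 at 0.36 (0.517). Pou4f1 (Brn3a), a homeodomain factor of sensory neurons, read 9.32, 6.90 and 8.20 on mutant arrays, against 8.07, 6.43 and 7.78 on wild-type arrays. Its difference was 0.72 (SE 0.64, adjusted p = 0.676). The 2 lower genes of this list were Ntrk3 (−0.265) and Prrxl1 (−0.135). Runx3, Tlx2 and Gfra3 were near 0, at 0.008, 0.089 and 0.094. Of 9 glia and neural crest genes 8 had higher values (median 0.44), with Snai2 at 1.14 (0.241), Sox10 at 1.07 (0.276), Tfap2a at 0.93 (0.283) and Tfap2b at 0.58 (0.276). On the same scale the glia and crest average stood at 0.57, 0.38 and 0.73 for mutant arrays, and at 0.20, −0.05 and −0.15 for wild-type arrays. All 3 mutant arrays were thus above all wild-type arrays, mutant array 1 included.

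Most cardiac genes had a mean above background (16 of 17), with Tnnt2, cardiac troponin T, at 9.94 to 10.28 on mutant and 10.74 to 11.12 on wild-type arrays. The exception was Nkx2-5, which read 4.17, 4.34 and 4.56 on mutant arrays, against 4.89, 4.95 and 4.63 on wild-type arrays. Of 17 cardiac progenitor and cardiomyocyte genes 12 had lower values (median −0.46), led by Smyd1 at −1.40 (adjusted p = 0.0881), Myocd at −1.40 (0.131), Tnnt2 at −0.76 (0.187) and Tbx20. The cardiac average stood at −0.65, −0.41 and −0.39 for mutant arrays, and at −0.15, 0.13 and 0.02 for wild-type arrays. Mutant array 1, which held wild-type levels of most of the 9 neuronal genes, had the lowest cardiac average.

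**Figure D4:**
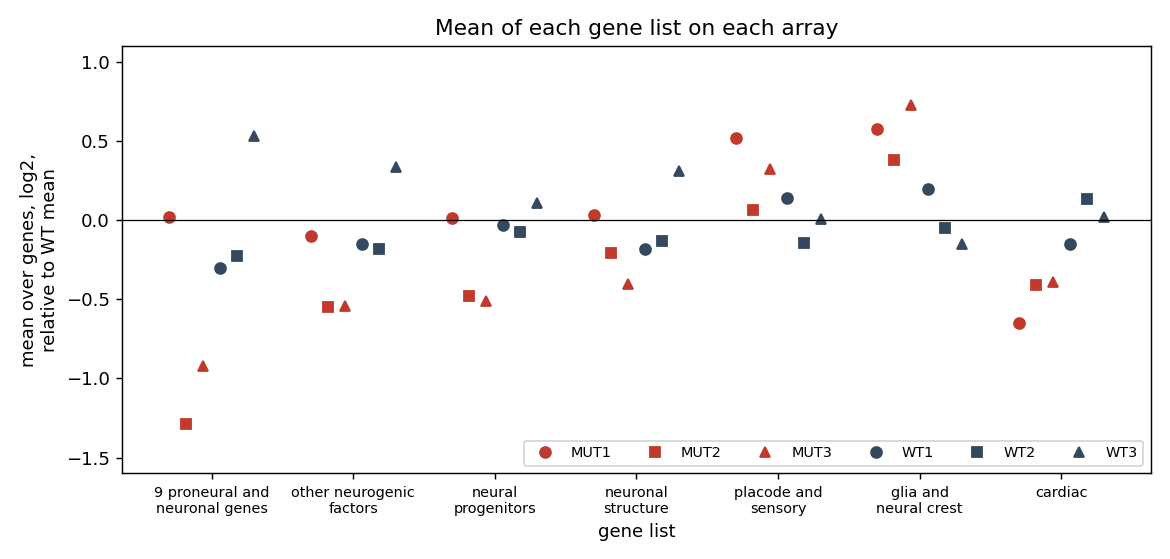
Mean over each list's measured genes (vertical axis, log2, relative to the wild-type mean) on each mutant (red) and wild-type (dark) array, with lists along the horizontal axis. For the 9 proneural and neuronal genes mutant arrays 2 and 3 lie at −1.29 and −0.92 and mutant array 1 at 0.02, whereas for glia and neural crest and for cardiac genes all 3 mutant arrays lie on one side of wild type.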

How the data were processed

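RNA from YFP+ sorted cells of 3 mutant and 3 wild-type samples was extracted with Trizol, amplified with the WT-Ovation Pico kit, labelled with biotin and hybridised to Affymetrix arrays, per the labels' protocols. The authors deposited log2 values for 45101 probe sets; how they corrected background, summarised and normalized is not given in the sources. The values span 1.89 to 15.07, from which the base was inferred. Array medians of 6.47 to 6.50 showed arrays already aligned, so no scaling was added, and a shift shared by most genes would not be visible. GEO's platform annotation named the probe sets, and RefSeq gene identifiers gave current symbols for 34741 of 34945 that name a single gene, while 932 probe sets naming several genes, 9160 unnamed and 64 control ones were left out of the gene fit. The unnamed and several-gene probe sets entered the fit over 45037 probe sets.

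Tests used limma 3.58.1 (R 4.3.3) with lmFit and eBayes, two-sided, on group alone; residual degrees of freedom were 4 and prior ones 3.45. P-values were adjusted by Benjamini-Hochberg across every gene tested, or every probe set where stated. The number of arrays limits the precision. The procedure was tested on simulated data. Named by rule were all 9 members and, from each further list, the 4 genes above background with the smallest p. Nefl, Gap43, Nefm, Snap25, Map2, Ina, Stmn3, Cntn2, Isl2 and Lhx3 were also named, outside this rule. So were Ntrk3, Prrxl1, Runx3, Tlx2, Gfra3 and the cardiac gene with a mean below background. Pou4f1 and Mnx1, and the per-array cardiac range of Tnnt2, were added after their values were seen. The members, lists and alternatives were chosen with earlier results of these data known. Alternatives were replicate block, quantile normalization, median centring, a filter on the dimmest 40% of genes, other choices of probe set, a trended robust prior, array weights and leaving out each array.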

Additional observations from a re-analysis of the deposited data

How the results depend on the processing

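No member passed under any alternative except Neurod4 without mutant replicate 1, so the count of members called was 0 to 1 with an array left out. The median of the members ran from −1.19 to −0.32 with an array left out and from −0.87 to −0.59 elsewhere. With an array left out, Neurog2 ran from −0.33 to 0.33, Neurod1 from −1.03 to 0.001 and Stmn2 from −0.68 to 0.046, each changing sign; the other 6 members kept their sign in all 14 alternatives. The 12 calls over all genes became 6 with median centring, 1 with the most variable probe set or with the mean of probe sets, 0 with every probe set tested, and 0 to 92 with an array left out. The count over all probe sets, 0 in limma with 4846 at an unadjusted p under 0.05, was 10 without the dimmest 40%, 15 with a trended robust prior, 10 with array weights and 0 to 56 with an array left out. The cause of these moves was not tested. With the replicate number as a block, 0 genes, 0 members and 0 probe sets passed, with a member median of −0.72. The numbers were not taken to pair the samples: deviations of same-numbered arrays correlated at 0.108, −0.075 and −0.016. Only mutant array 1 correlated best with the wild-type array of its own number. Probe sets below background, such as 1 of Neurod4, limit what can be read.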

Other observations

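Genes outside the members were ranked by how closely their values followed the mean centred profile of the 9 genes over the 6 arrays, among 4281 genes above background that varied by an SD of at least 0.3. The 8 closest had Pearson correlations of 0.972 to 0.988 over 6 arrays, given as a description, since all genes share the same arrays and 106 candidates exceeded 0.9. St18, a zinc-finger factor of neurogenesis, was among them at 0.973, with 6.51, 4.80 and 5.43 on mutant arrays 1, 2 and 3, against 6.48, 5.97 and 7.44 on wild-type arrays 1, 2 and 3. Gng3, a G protein γ subunit known from brain, followed at 0.972, with 7.47, 6.48 and 6.98 on mutant arrays, against 7.09, 7.28 and 7.91 on wild-type arrays. Tbcb, a tubulin-folding cofactor, had 0.974 and a difference of −0.42 (SE 0.18, adjusted p = 0.426), with every mutant array below every wild-type array. The closest gene was Fanca, of the Fanconi anaemia DNA repair pathway, at 0.988, with 8.59, 7.96 and 8.04 on mutant arrays, against 8.46, 8.47 and 8.76 on wild-type arrays. The other genes were Zfp672, Ptges2, Elmo2 and Slc26a6, with differences from −0.54 to −0.41, and none of the 8 passed over all genes.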
